A study of Mus musculus with 2 samples.

Results

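Rab GTPases, the small GTP-binding proteins that give each membrane compartment of a cell its identity, were followed in spinal microglia through the transcripts of their genes. The 59 genes were chosen by name, as every mouse gene symbol in the count tables made of "Rab", a number and at most a letter and a digit, out of 32285 genes listed. Sorted microglia were profiled by scRNA-Seq in 2 libraries, a control one and one of 4E-BP1-cKO mice, in which the translational repressor 4E-BP1 (gene Eif4ebp1) was deleted from microglia. The study asked how loss of 4E-BP1 alters microglia, and the 2 libraries compare their transcriptomes. The control mice, called WT in the labels, carried the floxed allele (Eif4ebp1fl/fl) without Cre as far as the study's text gives it, and the cKO mice were Eif4ebp1fl/fl:TMEM119CreERT2, with Cre under the promoter of the microglial gene Tmem119. 4-OHT, the tamoxifen metabolite that activates this Cre, was injected from P4 to P9 in the study's mice. Experiments used mice of 8 to 10 weeks, and how many mice stand behind each library is not stated. By the study's methods, only the labelling of new protein and the behavioral work included females, so the mice of both libraries were male. Cells came from the lumbar spinal cord and passed a gate for CD45lo, CD11bhi and CX3CR1hi before capture with 10x Chromium 3′ chemistry.

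Rab proteins cycle between an inactive GDP-bound and an active GTP-bound form. Exchange factors load GTP on a target membrane, the active Rab recruits effectors that tether, move or fuse vesicles, GTPase-activating proteins end the signal, and GDI extracts the inactive Rab for reuse. In microglia and other phagocytes this machinery sorts engulfed material through early endosomes and phagosomes to lysosomes, recycles receptors and carries cytokines to the surface.

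A barcode was kept if it had over 300 genes detected and less than 5% of its UMIs from mitochondrial genes, which left 1147 control and 445 cKO cells. They held 4803562 and 1734332 UMIs, with a median of 3053 and 2776 UMIs per cell, and no barcode was shared between the libraries. A UMI is 1 captured molecule read at its 3′ end, so levels were given as counts-per-million of the library's UMIs (CPM) and were not divided by gene length. With 1 library per genotype there was no replicate check and no test, and the 95% intervals given here are exact Poisson or binomial intervals that cover counting error only. All 8 microglial markers were detected in each library, with Csf1r in 90.1% of control and 87.0% of cKO cells, but Tmem119 was detected in 59.4% and 33.9%. Neuronal marker genes, which microglia should lack, had a UMI in 0.0872% to 1.22% of control cells and in 0% to 1.12% of cKO cells. Single markers of other cell types reached more cells. The oligodendrocyte list ran from 0% to 10.2% of control and 0.449% to 14.8% of cKO cells. Endothelial markers ran from 0.436% to 9.50% and 0% to 6.07%. Astrocyte markers ran from 0% to 23.3% and 0.225% to 17.3%, and B cell markers from 0% to 29.6% and 0% to 25.8%. Whether this is free RNA or RNA of the sorted cells was not tested. Eif4ebp1 itself had 95 UMIs (19.8 CPM) in the control library and 51 UMIs (29.4 CPM) in the cKO library, and because reads at the 3′ end need not cover the floxed exon, these values do not check the deletion.

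Rab transcripts made up 0.385% of all UMIs in control microglia (interval 0.379% to 0.390%) and 0.379% in cKO microglia (0.370% to 0.388%). These were 18479 and 6572 UMIs. The intervals overlap, so the weight of the whole family was not distinguishable between the libraries at this depth. Of the 59 genes, 32 had at least 100 UMIs over both libraries and were compared. They held 98.2% of the control and 98.3% of the cKO Rab UMIs. A further 11 genes had 10 to 99 UMIs, 13 had 1 to 9, and 3 (Rab15, Rab17 and Rab9b) had 0 in both libraries, for which a floor of 3 UMIs (the one-sided 95% limit of a count of 0) is 0.625 CPM in control and 1.73 CPM in cKO. The median cell of either library showed 7 different Rab genes, and 3 when each cell was thinned to 872 UMIs, which left out 89 control and 70 cKO cells.

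**Figure D1:**
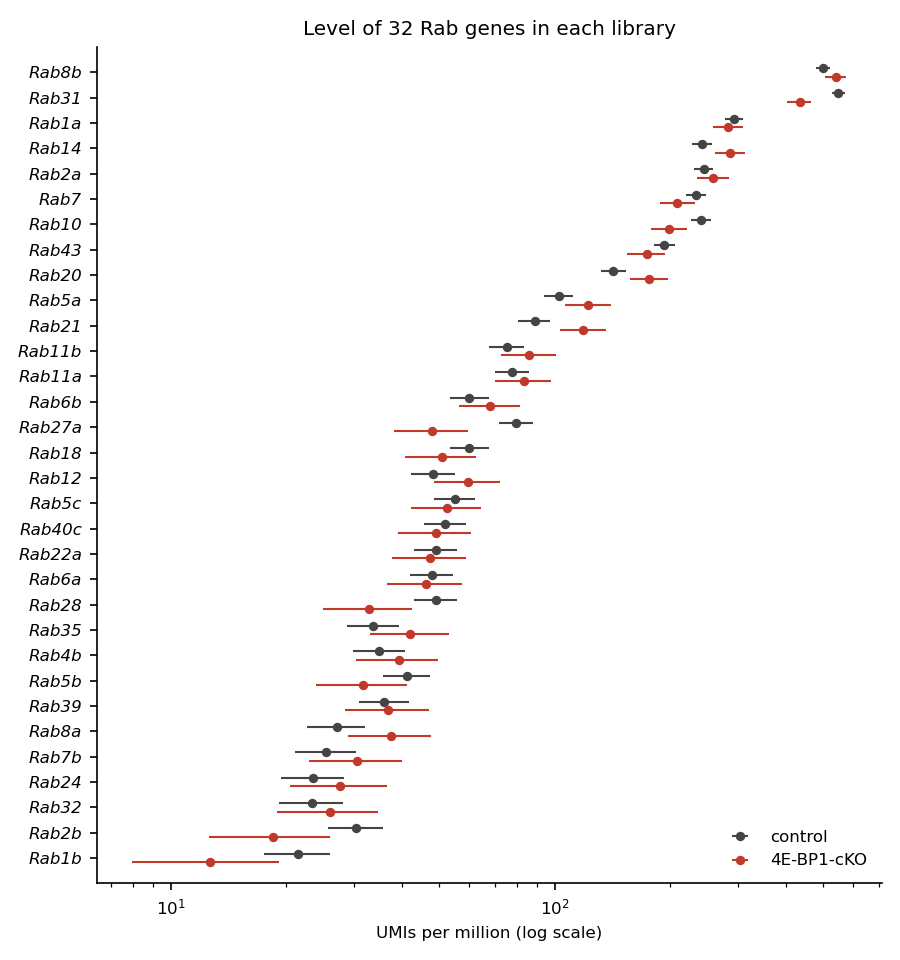
Level of the 32 Rab genes with at least 100 UMIs over both libraries, in CPM on a log axis. Points are the control (grey) and 4E-BP1-cKO (red) libraries and bars are exact 95% Poisson intervals. Rab8b and Rab31 lie at 434 to 548 CPM and the lowest genes at 12.7 to 30.4 CPM.

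Use of the family was uneven. Rab31 and Rab8b alone supplied 27.2% of the control and 25.7% of the cKO Rab UMIs, and the 10 most abundant genes of each library supplied 71.2% and 70.8%. Rab31, which acts between the trans-Golgi network and early endosomes, stood first in control microglia at 548 CPM (528 to 570) and second in cKO microglia at 434 CPM (404 to 466). Rab8b, which carries vesicles to the plasma membrane, stood at 500 CPM (480 to 520) in control and 539 CPM (505 to 575) in cKO. The order of these genes was therefore opposite in the 2 libraries, and their intervals did not overlap within either library. Rab31 was detected in 63.6% of control and 54.8% of cKO cells and Rab8b in 62.4% and 64.0%. In GRCm38 the RefSeq annotation places Rab31 at chr17:65651726-65772752 and Rab8b at chr9:66843609-66919705.

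Among the genes of the ER and Golgi, 9 of 16 were measured, and the group held 26.3% of control and 25.6% of cKO Rab UMIs. Rab1a, which drives ER-to-Golgi transport, had 293 CPM in control (278 to 309) and 283 CPM in cKO (259 to 309). Rab2a, which works on the same route and in delivery to lysosomes, had 244 CPM and 259 CPM. Rab43, a Golgi Rab, had 193 CPM and 174 CPM. The rest of the group lay lower, with Rab18 of the ER and lipid droplets at 60.0 CPM and 50.7 CPM. Rab6b had 60.0 CPM and 68.0 CPM, above its paralog Rab6a of Golgi traffic at 47.9 CPM and 46.1 CPM. Rab39 had 36.0 CPM and 36.9 CPM, Rab2b had 30.4 CPM and 18.5 CPM, and Rab1b had 21.4 CPM and 12.7 CPM.

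The early endosome and phagosome group had all 7 members measured and held 26.7% and 25.9% of Rab UMIs. After Rab31 came Rab20, a Rab of maturing phagosomes, at 142 CPM in control (132 to 153) and 176 CPM in cKO (157 to 197). Rab5a, the organizer of early endosome fusion, had 102 CPM and 122 CPM, and Rab21, which traffics integrins, had 88.7 CPM and 119 CPM. Rab5c had 55.0 CPM and 52.5 CPM, Rab5b had 41.2 CPM and 31.7 CPM, and Rab22a, a paralog of Rab31, had 49.1 CPM and 47.3 CPM. No member of this group was below 31.7 CPM in either library.

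Of the 8 recycling genes, 5 were measured, and they held most of a group that supplied 12.1% of control and 14.3% of cKO Rab UMIs, with intervals of 11.6% to 12.6% and 13.4% to 15.1%. Rab14, which sorts between the Golgi and endosomes, led with 242 CPM and 287 CPM. The slow recycling Rabs Rab11a (77.7 CPM and 83.0 CPM) and Rab11b (75.2 CPM and 85.9 CPM) could not be ordered, because their intervals overlap in each library. Rab35 had 33.7 CPM and 42.1 CPM, and Rab4b of fast recycling had 35.0 CPM and 39.2 CPM.

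The late endosome, lysosome and autophagosome group, with 5 of 9 genes measured, held 9.70% and 9.81% of Rab UMIs. Rab7, which directs late endosomes and phagosomes to lysosomes, had 234 CPM in control (220 to 248) and 209 CPM in cKO (188 to 231). Rab12 had 48.3 CPM and 59.4 CPM. Rab7b, Rab24 (linked to autophagy) and Rab32 (of lysosome-related organelles) lay between 23.3 and 30.6 CPM in both libraries. Secretion and plasma membrane Rabs held 22.5% and 22.0%, nearly all of it in 4 of their 14 genes. Beside Rab8b these were Rab10 (241 CPM and 199 CPM), the exocytic Rab27a (79.5 CPM and 47.9 CPM) and Rab8a (27.1 CPM and 37.5 CPM). The 5 genes of cilia, ubiquitin ligation and other roles held 2.75% and 2.36%, with Rab40c at 51.8 CPM and 49.0 CPM and Rab28 at 49.1 CPM and 32.9 CPM.

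The 27 genes below 100 UMIs had at most 89 UMIs over both libraries. Rab9, of transport from late endosomes to the Golgi, had 67 control and 22 cKO UMIs, and Rab33b had 63 and 22. In each library 19 genes were detected in under 1% of cells, a share within the range of the neuronal markers, so their UMIs were not told apart from free RNA. Single markers of other cell types reached higher shares, so detection in more than 1% of cells does not set a gene apart from free RNA either. Among the genes under 1% were Rabs of regulated secretion in neurons and glands, namely Rab3b, Rab3c and Rab27b with 3 control UMIs each and 0 in cKO. Rab3a, the synaptic vesicle Rab, had 16 control and 6 cKO UMIs, in 1.31% and 1.35% of cells. Rab30 had 18 control UMIs in 12 cells and 0 in cKO. The interval of its ratio, cKO over control, reached up to 0.630. These genes were singled out after their values were seen.

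Paralog sets were mostly represented by a single gene. Rab8b supplied 94.9% of Rab8 UMIs in control (93.9% to 95.7%) and 93.5% in cKO (91.8% to 94.9%), and Rab31 supplied 91.8% and 90.2% of the pair Rab22a and Rab31. Rab1a held 93.2% and 95.7% of its pair, Rab2a 88.9% and 93.3%, Rab7 90.2% and 87.2%, and Rab4b 94.9% and 91.9%. Rab27a held 99.2% and 100%, Rab32 99.1% and 100% against Rab38, and Rab39 98.9% and 100% against Rab39b. Rab40c held 97.3% and 97.7% against Rab40b. The exceptions were Rab11, split 50.7% to 49.1% between Rab11a and Rab11b in control and 49.1% to 50.9% in cKO, Rab6, with 55.6% and 59.6% from Rab6b, and Rab5. Of the Rab5 UMIs, Rab5a held 51.6% in control (48.4% to 54.8%) and 59.2% in cKO (53.9% to 64.4%), Rab5b 20.8% and 15.4%, and Rab5c 27.7% and 25.4%. The Rab2 pair was the only one of these sets whose intervals did not overlap between the libraries (87.1% to 90.6% against 90.7% to 95.4% for Rab2a). How reads shared by paralogs were counted was not tested. In GENCODE, on a later genome build than that of the counts, a coding gene model overlaps Rab43 (Gm45140), Rab4b (Gm21983) and Rab26 (Traf7) on the same strand. What such overlaps do to the UMIs of these genes was not tested.

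Promoter sequence, from 250 bases before to 50 after the RefSeq start in GRCm38.p6, was at hand for 48 of the 59 genes (60 promoters) and 29 of the 32 measured ones (34 promoters). Each of 3 motifs was searched on both strands. CACGTG, the palindromic E-box of several basic helix-loop-helix factors, was in 7.15% of all 32851 promoters and in 5 of the 34 promoters of measured Rab genes (Rab20, Rab21, Rab24, Rab27a and Rab5a). The motif holds a CpG, and those 34 promoters were richer in CpG than all promoters, with a median of 25 against 7 and a median GC content of 63.5% against 52.7%, so that these shares are not like for like. GAGGAAGT, an ETS motif of the myeloid factor PU.1, was in 3.20% of all promoters and in 2 of the 34 (Rab2b and Rab32). TGAGTCA, the AP-1 motif, was in 5.20% of all promoters and in 0 of the 34. The 30-base windows around the matches of early endosome Rabs are shown, because that group held 3 of the 5 genes with CACGTG and includes Rab20, whose level varied between clusters. Each lies before the start that the promoter table gives, is written along the gene's strand, and has the motif in capitals. For Rab21 that start is an inner one, because the gene's RefSeq span in GRCm38 (chr10:115289862-115317419) reaches further upstream and holds the window.
Rab20, chr8:11478669-11478698, minus strand: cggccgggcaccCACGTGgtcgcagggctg
Rab21, chr10:115315604-115315633, minus strand: gcccaccgcggtCACGTGacgaggggtgtg
Rab5a, chr17:53478987-53479016, plus strand: aattggagaagaCACGTGacgcaaccccac
Rab5a, chr17:53479127-53479156, plus strand: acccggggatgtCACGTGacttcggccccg
The match lies 46 bases before the start in Rab20, 30 in Rab21, and 235 and 95 in Rab5a. These are letter matches in these windows and no binding was measured.

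Between the libraries the Rab genes differed little. Taking at least 1.5-fold in CPM (pseudocount of 1 CPM) as a change of note, 0 of the 32 genes were higher in cKO microglia, where 1.87% of all 7184 genes with at least 100 UMIs were. Lower in cKO were 3 of 32, where 5.01% of all genes were. The minimum of 100 UMIs was set on the sum of both libraries, most of which is control. Genes near it therefore pass more readily when they are higher in control, among the Rab genes and among all genes. Of the 3 lower genes, Rab1b was closest to the minimum, with 125 UMIs over both libraries. The median log2 ratio of the 32 genes, cKO over control, was 0.06, against -0.03 for all genes, and single values ran from -0.72 to 0.46. The counting interval of the ratio lay above 1 for 5 Rab genes (11.1% of all genes), below 1 for 6 (16.1% of all genes) and held 1 for 21.

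The 3 lower genes were Rab27a, Rab1b and Rab2b. Rab27a (chr9:73044810-73097623), which docks secretory vesicles and lysosome-related organelles at the plasma membrane, had 382 control and 83 cKO UMIs. Its log2 ratio was -0.72, with a ratio between 0.469 and 0.765. It was detected in 18.7% of control and 13.5% of cKO cells. Its level was lower in cKO in 8 of the 9 clusters that held at least 20 cells of each library, and so were those of Rab31 and Rab18. These clusters are parts of the same 2 libraries, so they give no further check of the ratio. The counting interval of Rab27a lay below 1 only in clusters 4, 5 and 7, the last on 2 cKO UMIs. Rab1b (chr19:5099207-5106996) had 103 and 22 UMIs and a log2 ratio of -0.71 (ratio 0.355 to 0.944). Rab2b (chr14:52261759-52279395) had 146 and 32 UMIs and a log2 ratio of -0.69 (ratio 0.400 to 0.895). For the more abundant paralogs the ratio interval held 1, at 0.869 to 1.07 for Rab1a and 0.949 to 1.18 for Rab2a. With a minimum of 200 UMIs or a pseudocount of 10 CPM, Rab27a alone passed 1.5-fold, and at 2-fold 0 genes did.

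**Figure D2:**
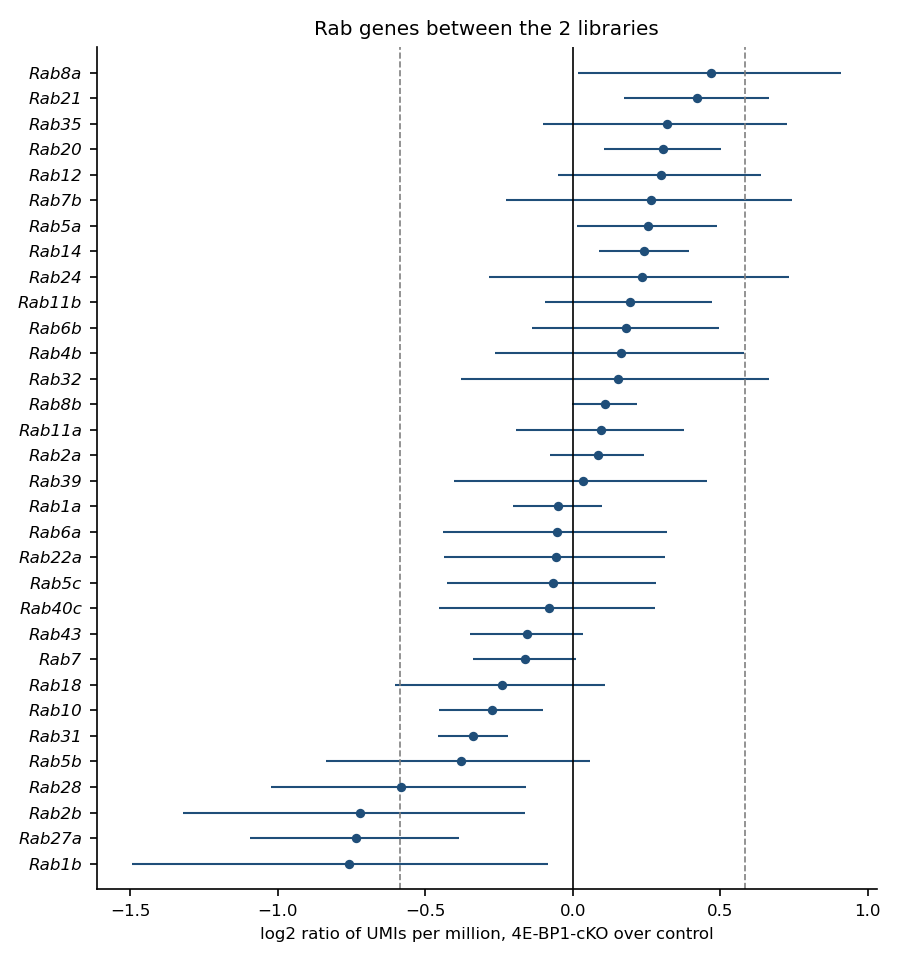
Log2 ratio of CPM, 4E-BP1-cKO over control, without a pseudocount, for 32 Rab genes ordered by ratio. Bars are exact conditional 95% Poisson intervals and dashed lines mark 1.5-fold. Rab27a, Rab1b and Rab2b lie lowest, and the lines of 21 genes cross 0.

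Other differences were smaller. The intervals in brackets here are those of the ratio itself and not of its log2. Rab28, a Rab of cilia and of retrograde traffic, had a log2 ratio of -0.57 (0.492 to 0.897), just short of 1.5-fold. Rab31, with the most UMIs of any Rab gene, was lower in cKO by 0.34 on the log2 scale, with a ratio of 0.729 to 0.859, and Rab10 had a log2 ratio of -0.27 (0.731 to 0.933). On the other side, Rab8a had a log2 ratio of 0.46 (1.01 to 1.88), Rab21 of 0.42 (1.13 to 1.59), Rab20 of 0.30 (1.08 to 1.42), Rab5a of 0.25 (1.01 to 1.405) and Rab14 of 0.24 (1.06 to 1.32). In Rab8b the log2 ratio was 0.11 (0.999 to 1.16). Of the 5 genes whose interval lay above 1, 3 are early endosome Rabs, but the group's median over 7 genes was -0.05. Less abundant genes such as Rab5b (log2 ratio -0.37), Rab35 (0.31), Rab12 (0.29) and Rab7b (0.26) had intervals that held 1. Library, genotype and any difference in handling cannot be told apart with 1 library each.

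Clusters were rebuilt with the study's clustering settings but with doublets kept and without the Rab genes, so that no Rab value helped to form them. The cells fell into 10 clusters, numbered by size and given no cell type name. These numbers were not matched to the study's own clusters, which came from fewer cells. In clusters 2, 3, 4, 5 and 10 the median cell had over 3% of its UMIs in ribosomal protein genes (ribosome-rich, 510 control and 249 cKO cells), and in clusters 1, 6, 7, 8 and 9 it had less (ribosome-poor, 637 and 196 cells). The states also differed in depth and in nuclear RNA. The median cell had 5606 UMIs in control and 4683 in cKO in the rich state, against 2338 and 1957 in the poor state. Cluster 3 of the rich state was an exception, with the shallowest cells of all clusters (median 785 UMIs over both libraries). The nuclear transcript Malat1 took 2.75% and 3.20% of UMIs in the rich state, against 4.88% and 4.87% in the poor state. The part of depth and nuclear RNA in the results that follow was not tested, apart from the thinned values given beside them. Thinning left 439 rich and 619 poor cells in control and 213 and 162 in cKO. It therefore changed the cells compared as well as their depth.

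Rab genes as a family were a smaller share of the rich state, 0.371% (0.364% to 0.377%) against 0.411% (0.401% to 0.421%) in control and 0.369% (0.358% to 0.380%) against 0.404% (0.386% to 0.422%) in cKO. In control this gap was carried by Rab31, since without it the shares were 0.329% and 0.331%, with overlapping intervals. In cKO the shares without Rab31 were 0.332% and 0.343%, also with overlapping intervals. Other abundant genes differed there too, with Rab8b at 496 CPM in the rich and 649 CPM in the poor state and Rab1a at 246 CPM and 376 CPM. Rab14 went the other way in cKO, at 332 CPM and 171 CPM. The gap also depends on the scale, because the states were set by ribosomal protein genes. These took 7.19% of UMIs in the rich and 1.35% in the poor state in control and 7.998% and 1.35% in cKO. With TMM factors, which rescale each state's total, the rich over poor ratio of the share moved from 0.902 to 0.994 in control and from 0.914 to 1.07 in cKO. Single genes went both ways. In both libraries 7 of 32 were at least 1.5-fold higher in the rich state, where 16.3% of all genes were, and 2 were at least 1.5-fold higher in the poor state, where 11.3% of all genes were. The median log2 ratio, rich over poor, was -0.0016 in control and 0.16 in cKO over the 32 genes, against -0.12 and -0.11 over all genes.

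The 7 genes were Rab18, Rab5c, Rab6b, Rab24, Rab35, Rab4b and Rab8a. Rab18 had 73.3 CPM in the rich and 35.1 CPM in the poor state of the control library and 60.4 CPM and 26.4 CPM in cKO, for log2 ratios of 1.04 and 1.16. Rab5c had log2 ratios of 1.11 and 0.87, so that it formed 33.6% of control Rab5 UMIs in the rich and 16.1% in the poor state (27.5% and 18.8% in cKO). Rab6b had 0.60 and 1.21, Rab24 had 0.81 and 1.16, Rab35 had 0.93 and 0.72, Rab4b had 0.85 and 0.72, and Rab8a had 0.75 and 0.78. In the cKO library the intervals of Rab35, Rab4b and Rab8a reached below 1 (0.920, 0.903 and 0.922). When each cell was thinned to 872 UMIs, 4 of the 7 (Rab18, Rab5c, Rab6b and Rab4b) still passed, and the log2 ratio of Rab8a in control turned to -0.15. Rab8a had a UMI in 1.70% of thinned control cells, so that value rests on few counts, and no interval is given for it. Rab14 was close to the limit, at 0.53 and 0.96, and Rab1b passed only in control, at 1.36 and 0.39.

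Rab31 and Rab40c were the genes of the poor state. Rab31 had 414 CPM in the rich and 798 CPM in the poor state of control, and 366 CPM and 606 CPM in cKO. Its log2 ratios were -0.94 (ratio 0.481 to 0.561) and -0.72 (ratio 0.521 to 0.702). Rab40c, part of a ubiquitin ligase, had log2 ratios of -0.64 and -1.21. In control it was uneven over the poor clusters, from 27.4 CPM in cluster 6 (8 UMIs) to 98.2 CPM in cluster 1, against 43.2 CPM in the rich state. In cKO it ran from 53.4 CPM in cluster 8 (8 UMIs) to 150 CPM in cluster 7 (11 UMIs), against 35.4 CPM in the rich state. The calls of Rab31 and Rab40c depend on the scaling. TMM factors moved the median of all genes from -0.12 to 0.02 in control and from -0.11 to 0.11 in cKO. Relative to that scale 9 Rab genes were higher in the rich and 0 in the poor state, with Rab31 at -0.80 and -0.50. More of all genes were higher in the rich state on that scale as well, and fewer in the poor state (shares given with the partner genes). With ribosomal protein and mitochondrial genes left out of the total, the counts were 8 and 1, for which no share of all genes is given.

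The state ratio fell with the length of the gene on the genome. Across the 32 Rab genes, Pearson's r between log10 length and the log2 ratio was -0.60 in control and -0.49 in cKO, and across 6963 genes with a RefSeq length it was -0.57 and -0.55. These correlations are across genes of the same libraries, which are not independent replicates, and share depth and base composition. Rab31 is the longest of the measured Rab genes at 121 kb and Rab24 the shortest at 2.76 kb. Rab6b, at 73.6 kb, was the longest of the 7 genes of the rich state. What part gene length has in the ratios was not tested.

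**Figure D3:**
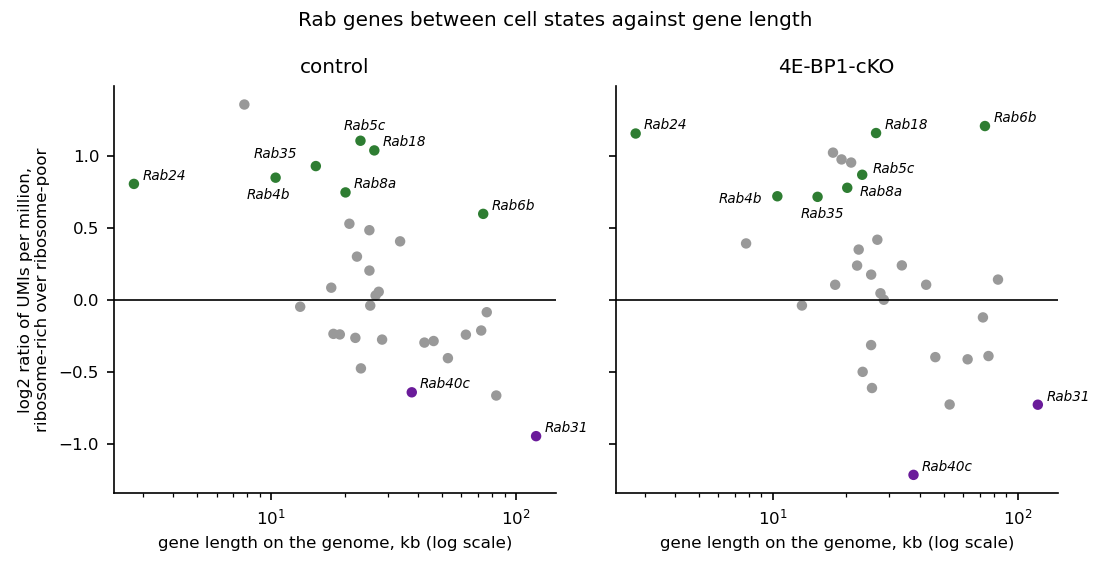
Log2 ratio of CPM, ribosome-rich over ribosome-poor cells, against gene length in kb on a log axis, for 32 Rab genes in each library. Green genes are at least 1.5-fold higher in the rich state in both libraries and purple genes in the poor state. Rab31, at 121 kb, lies at -0.94 and -0.72.

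Within these states, single clusters carried the widest contrasts. Rab7b, a late endosome Rab that in macrophages acts on Toll-like receptor traffic, had 76.9 CPM in cluster 6 (51.5 to 110), 64.3 CPM in cluster 5 (51.7 to 79.2), 48.5 CPM in cluster 8 and 34.6 CPM in cluster 3. In clusters 1, 2, 4, 7 and 9 it had 2.49 to 8.17 CPM, on 1 to 11 UMIs each, and in cluster 10 it had 16.8 CPM on 4 UMIs. Both libraries showed the level of cluster 6, at 82.3 CPM in control and 58.4 CPM in cKO (5 UMIs), and of cluster 5, at 62.0 CPM and 69.5 CPM. In clusters 8 and 3 the control values were 62.1 CPM and 38.6 CPM. The cKO values there were 26.7 CPM and 25.8 CPM, below the rest of that library (log2 -0.21 and -0.25). They rest on 4 and 3 UMIs, too few to tell the libraries apart in these clusters. In all, Rab7b had 122 UMIs in 61 control cells and 53 UMIs in 30 cKO cells, and the Poisson intervals do not cover spread between cells. Its paralog Rab7 ranged less, from 118 CPM in cluster 10 to 383 CPM in cluster 9, and was highest in cluster 9 in control (408 CPM) and in cluster 7 in cKO (313 CPM, against 272 CPM on 10 UMIs in cluster 9). In cluster 6 its log2 ratio over the rest was 0.50 in control and 0.17 in cKO. Rab7b lies at chr1:131688681-131715443.

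Rab8b was highest in the same cluster 6, at 1104 CPM in control and 1167 CPM in cKO, and next in cluster 5, at 721 CPM and 674 CPM. In the remaining clusters it ran from 317 to 546 CPM in control and from 245 to 667 CPM in cKO, so that the level in cluster 6 exceeded that of any other cluster in both libraries. Rab31 also varied across the rich clusters, with 733 CPM and 697 CPM in cluster 3, 273 CPM and 250 CPM in cluster 5 and 137 CPM and 130 CPM in cluster 10, and its highest level was in cluster 9 at 880 CPM and 763 CPM. Rab20 was highest in cluster 8 in control (269 CPM), had 234 CPM in both cluster 5 and cluster 8 in cKO, and was lowest in cluster 4 in both (82.3 CPM and 40.6 CPM).

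**Figure D4:**
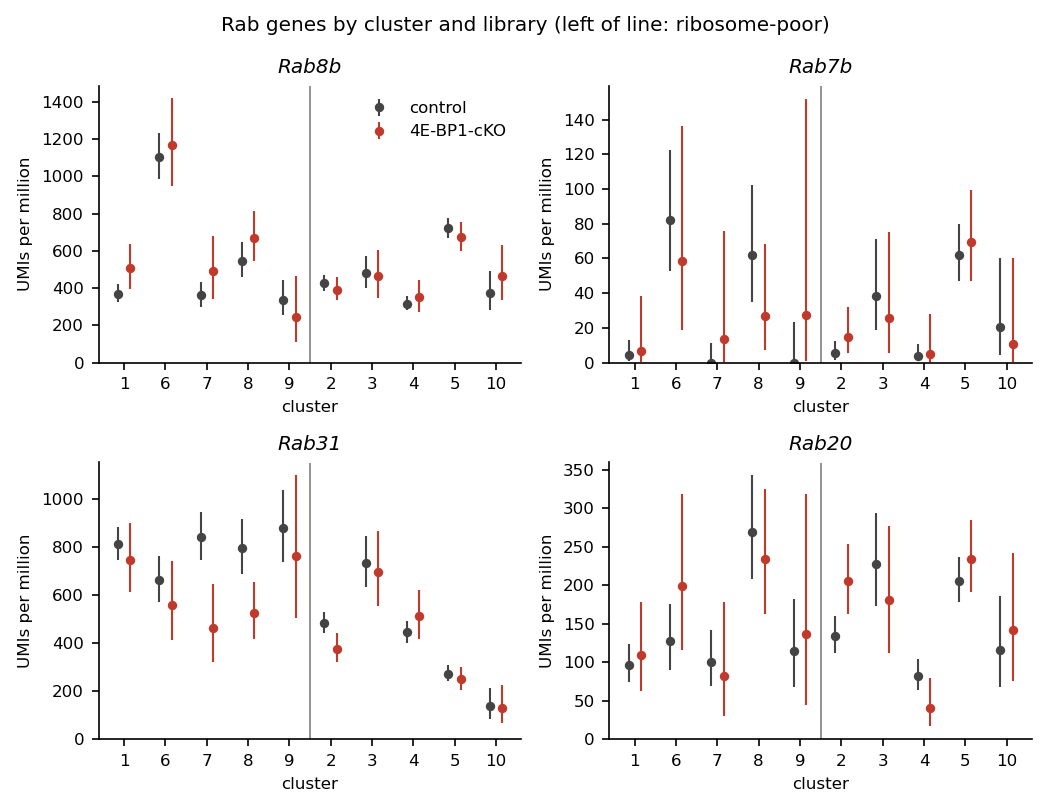
CPM of Rab8b, Rab7b, Rab31 and Rab20 in each of 10 clusters, for the control (grey) and 4E-BP1-cKO (red) libraries, with exact 95% Poisson intervals. Ribosome-poor clusters lie left of the line. Rab8b reaches 1104 and 1167 CPM in cluster 6, and Rab31 falls to 137 and 130 CPM in cluster 10.

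Clusters 5, 6 and 10 were singled out after their values were seen. Cluster 6, with Alcam and Lilr4b among its leading genes, had the largest Rab share of all clusters at 0.455% (0.434% to 0.477%). This was carried mainly by Rab8b rather than by the family as a whole. With both libraries summed, Rab8b had 1119 CPM in cluster 6 and 320 to 706 CPM in the other clusters. Against all other cells of the same library, Rab8b, Rab43, Rab22a and Rab7b were at least 1.5-fold higher there in both libraries (4 of 32, and 11.2% of all genes), and Rab14, Rab6a, Rab4b and Rab24 were lower (4 of 32, and 21.6% of all genes). The lower ones rest on 6, 1, 2 and 1 cKO UMIs, and Rab24 had 0 control UMIs there. Cluster 5, with the chemokine Cxcl2, metallothioneins and Lpl among its leading genes and the deepest cells (median 8405 UMIs), had Rab18 and Rab7b higher (2 of 32, and 6.57% of all genes). Rab31, Rab40c and Rab39 were lower in cluster 5 (3 of 32, and 14.9% of all genes). Cluster 10, with Apoe and Lyz2 among its leading genes and the highest ribosomal share (median 18.8%), had the smallest Rab share at 0.301% (0.279% to 0.324%), on 25 control and 17 cKO cells. Its ribosomal protein UMIs are part of the total and lower the share of other genes. No share without them is given for this cluster. There 0 of 32 Rab genes were higher (8.46% of all genes) and 6 were lower (29.2% of all genes), namely Rab31, Rab7, Rab10, Rab5a, Rab40c and Rab28, of which Rab40c rests on 2 and Rab28 on 1 cKO UMIs.

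**Figure D5:**
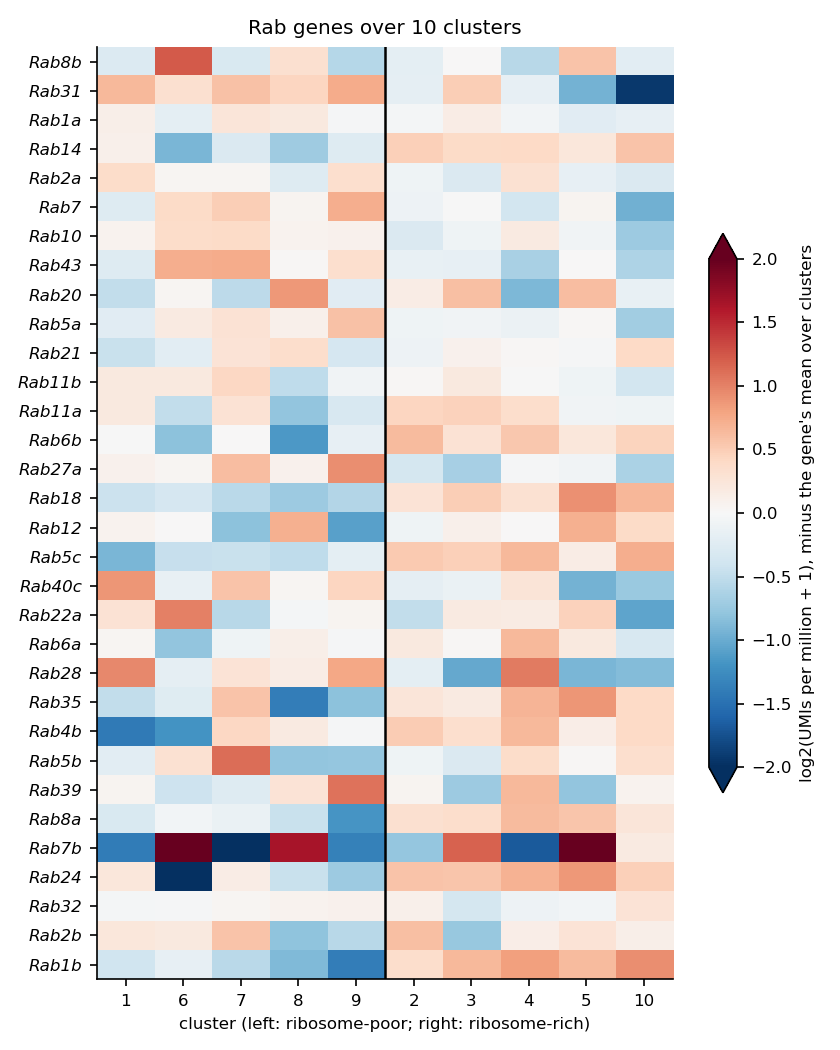
Level of 32 Rab genes in 10 clusters, both libraries summed, as log2(CPM + 1) minus the gene's mean over clusters. Colours stop at 2 above and below 0, and ribosome-poor clusters lie left of the line. Rab7b and Rab8b stand out in cluster 6, and Rab31 is lowest in cluster 10.

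Clusters 2 and 4 were both deep (median 5402 and 6261 UMIs) but differed in early response genes such as Fos, with a median of 3.52% and 1.17% of a cell's UMIs. Such genes are known to rise when microglia are dissociated, and this pair was chosen after the data were seen. Rab20 was higher in cluster 2, at 134 CPM against 82.3 CPM in control and 205 CPM against 40.6 CPM in cKO (1 of 32, and 7.7% of all genes). Rab28 was lower there, at 41.5 CPM against 76.3 CPM in control and 17.3 CPM against 101 CPM in cKO (1 of 32, and 10.7% of all genes). The cKO values rest on 8 UMIs for Rab20 in cluster 4 and on 7 for Rab28 in cluster 2. Against all other cells, cluster 4 had Rab28 and Rab39 higher in both libraries (2 of 32, and 7.10% of all genes). Rab8b, Rab20 and Rab7b were lower there (3 of 32, and 9.08% of all genes). In cluster 2 neither Rab20 nor Rab28 passed 1.5-fold in both libraries, and Rab20 had log2 ratios of -0.11 in control and 0.29 in cKO. Whether dissociation has a part in the differences of Rab20 and Rab28 was not tested.

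The proteins that run the Rab cycle were followed in 4 lists of 123 genes, of which 79 had at least 100 UMIs. Between the libraries 1 was at least 1.5-fold higher in cKO, the exchange factor Dennd2a (68 control and 39 cKO UMIs, log2 ratio 0.63, ratio 1.04 to 2.39), and 0 were lower, against the same shares of all genes as above. The median log2 ratios were 0.01 for escort, prenylation and extraction, -0.08 for exchange factors, -0.08 for GTPase-activating proteins and -0.09 for effectors.

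Between the states the lists diverged in counts. Unlike the Rab genes, the partner genes and the genes behind the shares of all genes were not kept out of the clustering. Those shares also include the ribosomal protein genes by which the states were set. Of 5 measured escort, prenylation and extraction genes, 3 were higher in the rich and 0 in the poor state. These were Gdi2, the main Rab extractor here (195 CPM and 197 CPM in the 2 libraries, log2 rich over poor 0.62 and 0.91), Rabac1, a prenylated Rab acceptor (88.1 CPM and 111 CPM, 2.13 and 1.53), and Rabggtb, a subunit of the Rab prenyl transferase (17.9 CPM and 21.3 CPM, 1.05 and 0.72). The escort protein Chm had 78.7 CPM and 72.1 CPM, with state ratios of -0.33 and -0.79. Chml, Rabggta and Rabif were below 100 UMIs, with 60, 34 and 34 over both libraries. The rich count of this list depends on the setting. It was 4 with TMM factors, 2 with a pseudocount of 10 CPM, 1 at 2-fold and 1 in thinned cells. In thinned cells 1 exchange factor and 1 effector were higher in the rich state as well.

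Of 24 measured exchange factors, 0 were higher in the rich and 7 in the poor state. The largest ratios, by the mean of both libraries, were those of Sbf1 (-1.19 and -1.02) and Dennd4c (-0.99 and -1.06). Of 24 GTPase-activating proteins, 0 and 6 were, led by Sgsm2 (-1.88 and -1.55), Sgsm3 (-0.63 and -1.50) and Tbc1d24 (-0.81 and -1.05), and of 26 effectors, 0 and 3 were, namely Rabepk (-1.82 and -1.78), Appl2 (-1.20 and -1.05) and Rab11fip3 (-1.01 and -0.59). Several of these named ratios rest on few cKO UMIs, both states summed. Rab11fip3 had 21, Tbc1d24 26, Sgsm2 29, Sgsm3 39 and Sbf1 42. Rabepk had 53, Appl2 57 and Dennd4c 88. The cKO ratio of Rab11fip3 lay just past 1.5-fold. No interval is given for these state ratios, so the order of the named genes is not firm. In all, 3 of 79 partner genes were higher in the rich and 16 in the poor state, where 16.3% and 11.3% of all genes were. With TMM factors the counts were 5 and 8, where 20.3% and 5.87% of all genes were.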

How the data were processed

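The values deposited by the authors are raw UMI counts of each gene in each barcode, made with Cell Ranger (8.0.1 in the table headers) on mm10 (GRCm38), with an annotation release not given in the sources used. Kept barcodes followed the study's limits, and doublets were kept. The study removed them with scDblFinder, whereas here Scrublet (scanpy 1.11.5), run as an alternative, called 4 control and 11 cKO cells against 10.5 and 1.58 expected. Removing these left 1143 control and 434 cKO cells. The study ended with fewer cells of each genotype, so this setting does not reproduce its set of cells. Counts were summed per library, cluster or state. Clusters used SCTransform 0.4.2 and RPCA integration in Seurat 5.3.0 (R 4.3.3, 20 components, resolution 1.4). Other steps used Python 3.11.15, numpy 2.4.6, pandas 2.3.3 and scipy 1.17.1, and TMM factors used edgeR 4.0.16. The ratio code was tested on simulated data. All members were accounted for and those with at least 100 UMIs over both libraries were named with values. The rule named all escort, prenylation and extraction genes, and in the other 3 partner lists up to 3 per direction with the largest ratio. Results for some genes counted in these lists are not reported here. Members and lists were chosen with earlier results of these data known. Gene lengths, coordinates and promoters are from RefSeq, matched by symbol.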

Additional observations from a re-analysis of the deposited data

How the results depend on the processing

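No paired analysis was possible because each genotype has 1 library and the labels give no replicate numbers. With ribosomal protein and mitochondrial genes left out of the total, the Rab share of UMIs was 0.410% in control and 0.408% in cKO. Thinning lowered the number of Rab genes detected in at least 5% of cells of both libraries from 31 to 13, because fewer UMIs remain. Between the libraries, the counts of Rab genes higher and lower in cKO (0 and 3) became 2 and 9 of 56 with no minimum above 1 UMI and 2 and 6 at a looser limit on the fold, and 1 and 5 for the mean of ratios within clusters, where 23.2% of all genes were lower. The lower count was 1 with a pseudocount of 10 CPM, 1 with at least 200 UMIs and 0 at 2-fold. Between the states, the counts higher in ribosome-rich and ribosome-poor cells (7 and 2) became 2 and 1 with a pseudocount of 10 CPM and 1 and 0 at 2-fold. The ribosome-rich count was 4 in thinned cells, where the control log2 ratio of Rab8a was -0.15 on few counts. The ribosome-poor count was 1 without ribosomal protein and mitochondrial genes in the total and 0 with TMM factors. The shares of all genes change with these settings as well, and where none is printed here the count is not set against one. Settings for the Rab share of the states and for the partner genes there were added after seeing the data. The rich over poor ratio of the share (0.902 in control and 0.914 in cKO) was 0.994 and 0.969 without Rab31, 0.957 and 0.980 without ribosomal protein and mitochondrial genes in the total, and 0.994 and 1.07 with TMM factors. The partner counts (3 rich and 16 poor) became 5 and 8 with TMM factors and 1 and 4 at 2-fold, and the poor count was 10 without ribosomal protein and mitochondrial genes, 9 with a pseudocount of 10 CPM and 22 in thinned cells. Apart from these, the counts of the main comparisons stayed within 1.5 times under the other planned settings, and without cluster 3 or cluster 10, 2 more alternatives added after seeing the data. The shares within paralog sets stayed within their intervals at a mitochondrial limit of 10% and with doublets removed. Causes were not tested, and the depth of the cKO library limits genes below 100 UMIs.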
